A study of Mus musculus with 6 samples.

Results

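The chaperonin containing TCP1 (CCT, also called TRiC) is a ring-shaped machine of the cytosol, and 10 genes of it were followed here. They are its 8 subunit genes, Tcp1, Cct2, Cct3, Cct4, Cct5, Cct6a, Cct7 and Cct8, and the genes of a pair of phosducin-like proteins that bind it, Txndc9 and Pdcl3. The members were chosen by symbol from the 23930 genes of the authors' deposited table, with the results of that table known, so their values below are a description. Microglia, the resident macrophages of the brain, were sorted by flow cytometry as CD11b+, CD45low and CD206- cells from perfused brains of 6 adult wild-type C57BL/6 mice. In the Saline group, 3 mice were given 4 injections of saline at intervals of 2 h. In the Meth group, 3 mice were given 4 injections of the psychostimulant methamphetamine at 5 mg/kg each, also 2 h apart. The time from the last injection to collection is not given in the sources used here.

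Each ring of CCT is built from all subunits, which descend from a common ancestor and hold fixed places in the ring. An unfolded protein is enclosed in the cavity and folded as ATP is hydrolysed. Actin, tubulin and many proteins with WD40 propellers, among them the beta subunits of heterotrimeric G proteins, need CCT to fold. Prefoldin hands over actin and tubulin chains, and phosducin-like proteins bind the ring together with a client. In microglia, actin and tubulin carry the movement of the processes and the uptake of particles.

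RNA was read with an amplicon panel, in which each gene has its own primer pair, so a level compared between genes also holds the efficiency of the primers. The authors' deposited table holds for every gene a log2 average of each group, a fold with a sign, and p before and after adjustment for the false discovery rate (FDR), with 0 columns of values per mouse. No spread between mice, no depth and no interval can therefore stand beside a value. Of the microglial markers used here, 9 of 9 stood above a log2 average of 1 in the authors' deposited table, with the receptor Csf1r at 12.23 in Meth and 12.29 in Saline. They were not all level between the groups, with 5 lower and 3 higher in Meth. The range ran from Tmem119 at 10.85 in Meth and 11.75 in Saline to Trem2 at 10.44 and 9.99, in the authors' deposited table. Markers of 8 other cell types made up 0.0259% of the summed back-transformed averages in Meth and 0.0378% in Saline, and 21 of the 42 in the table lay under a log2 average of 1 in both groups. Astrocyte markers summed to 48.6 in Meth and 141 in Saline, with 3 of 6 lower and Slc1a3 making up most of it, and microglial markers to 14700 and 16500, with 5 of 9 lower; the part of either in the differences below was not tested. Back-transformed means 2 to the power of the average, minus 1. These values sum to 981392 in Meth and 1012049 in Saline over all genes, so they are read here as reads scaled to a fixed library total. Some averages lie under 0, such as Cxcr2 at -0.03 in Saline, which a plain mean of log2 of reads plus 1 cannot give. Back-transformed values, their sums and their percentages are therefore approximate, and they are not mean reads of the mice. In bulk RNA, fewer cells of a type and less RNA per cell cannot be told apart.

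All 10 members were read in both groups, and their differences between Meth and Saline ran in both directions over a wide range. Cct8 had the lowest Meth average of the members and the largest lower fold of all 23930 genes, 10.39, in the authors' deposited table. Cct6a followed with a 3.71-fold and Txndc9 with a 2.18-fold lower average, while Cct2 stood 1.90-fold and Cct7 1.50-fold higher in the authors' deposited table. Txndc9 alone carried an adjusted p under 0.05, 1 of 10 members. Of the 10375 genes that reached a log2 average of 1 in Meth or Saline, 0.357% were called and 0.202% were called lower, and 2.24% of all genes were called. With Benjamini-Hochberg adjustment over those 10375 genes alone, 0 members were called and Txndc9 stood at 0.208. Of the members, 5 stood higher and 5 lower in Meth, with a median log2 difference (Meth minus Saline) of -0.11, against 0.02 for the genes at a log2 average of at least 1.

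**Figure D1:**
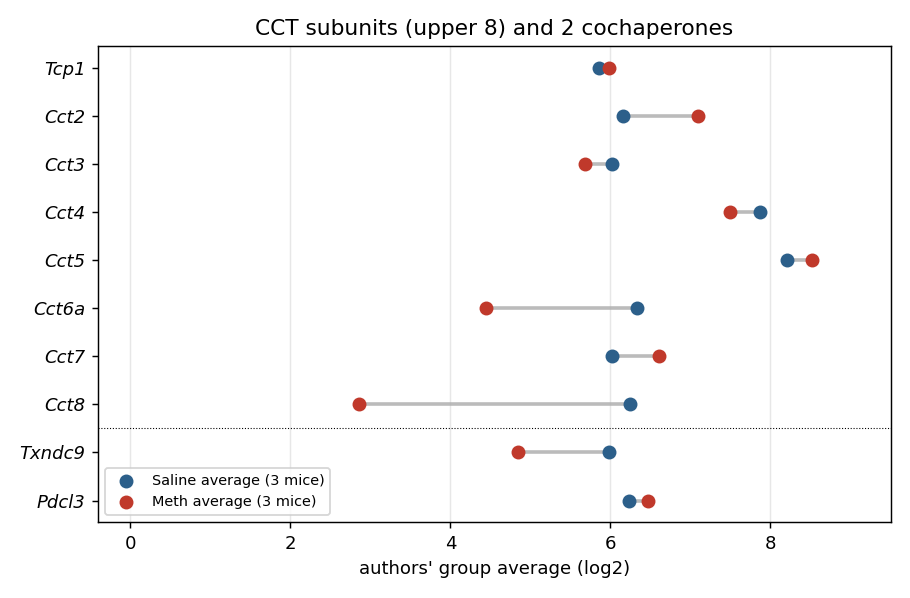
Group averages (log2) of the 8 CCT subunits and of Txndc9 and Pdcl3, with Saline in blue and Meth in red, each point the authors' average of 3 mice and the grey line joining the groups. Cct8 runs from 6.24 in Saline to 2.86 in Meth and Cct6a from 6.33 to 4.44, while the other subunits keep their groups within 1 log2 unit.

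The theta subunit Cct8 stood at log2 averages of 2.86 (Meth) and 6.24 (Saline) in the authors' deposited table. Back-transformed, these are 6.26 and 74.6, so the Meth value was 8.39% of the Saline value. In Saline Cct8 was the fourth most abundant subunit reading, and in Meth it was the lowest. The deposited p of this difference was 0.1537 and its adjusted p 0.6651 in the authors' deposited table, so the fold did not pass the threshold. By p it held rank 5527 of all genes, although it held rank 1 by lower fold.

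The zeta subunit Cct6a, the constitutive form beside the testis form Cct6b, stood at log2 averages of 4.44 (Meth) and 6.33 (Saline) in the authors' deposited table (p = 0.0738, adjusted p = 0.5446). Back-transformed, the Meth value was 26.1% of the Saline value, 20.7 against 79.4. Cct6b, the paralog used in the testis, was listed near 0 in the authors' deposited table, at 0.32 and 0.50.

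The beta subunit Cct2 had the highest fold of the members, at 7.09 (Meth) and 6.16 (Saline) in the authors' deposited table (p = 0.0462, adjusted p = 0.4799). It was the single subunit with an unadjusted p under 0.05, where 14.7% of the genes at a log2 average of at least 1 had one and 6.46% had one with a higher Meth average. The eta subunit Cct7 stood at 6.61 against 6.02 (p = 0.1399) and the epsilon subunit Cct5, the most abundant reading in both groups, at 8.52 against 8.21 (p = 0.1794) in the authors' deposited table. Tcp1, the alpha subunit that gave the complex its name, stood at 5.98 against 5.86, per the authors' deposited table (p = 0.2478).

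A pair of subunits stood slightly lower. Cct3, the gamma subunit, stood at 5.68 (Meth) and 6.02 (Saline; p = 0.4797), and Cct4, the delta subunit, at 7.50 and 7.87 (p = 0.8563), in the authors' deposited table. Cct4 had a larger difference than Tcp1 and a larger p, so among the members p did not follow the size of the difference.

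The summed reading of the subunits differed little between the group averages, and 0 of the 8 subunits passed the adjusted threshold. The 8 back-transformed averages sum to 917 in Meth and 937 in Saline. Most of either sum came from Cct5, at 366 in Meth and 295 in Saline, and Cct4, at 180 and 233. The sum also holds the efficiency of each primer pair, so it weighs the subunits unequally and is no measure of their supply. Without Cct8 and Cct6a, the other 6 sum to 890 in Meth and 783 in Saline. In Saline the log2 averages of the subunits spanned 2.35 units, from Tcp1 at 5.86 to Cct5 at 8.21, with an SD over genes of 0.91. In Meth they spanned 5.66 units, with an SD over genes of 1.79; without Cct8 and Cct6a the span was 2.84 units and the SD over genes 1.04. The order of the middle subunits in Saline (Cct6a, Cct8, Cct2, Cct3, Cct7 and Tcp1) lies within 0.47 log2 units, and whether neighbours in it differ cannot be judged without values per mouse.

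Beside genes read at like levels, Cct8 and Cct6a lay in the lower tail. In all, 2598 genes had a Saline average between those of Tcp1 and Cct5. Their median difference was -0.02, and the central 90% ran from -1.49 to 0.87. Of these genes, 0.0385%, Cct8 itself, lay at or below the difference of Cct8. At or below that of Cct6a were 2.42%, at or below that of Txndc9 8.93%, and at or above that of Cct2 4.12%. Txndc9, Cct3, Cct4, Cct5, Cct7, Tcp1 and Pdcl3 lay inside the central 90%.

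**Figure D2:**
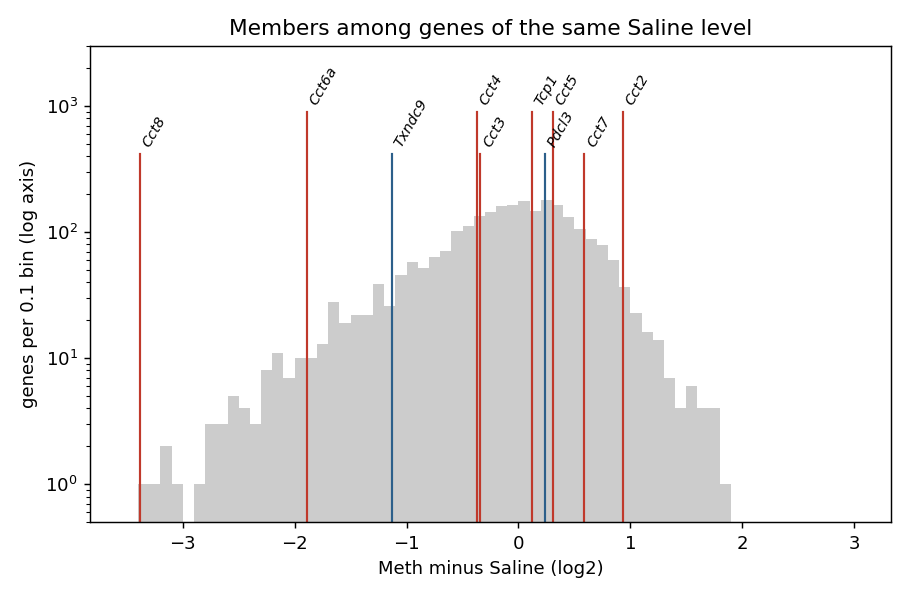
Log2 difference, Meth minus Saline, of the 2598 genes with a Saline average from 5.86 to 8.21 (grey bars, count per 0.1 bin on a log axis), with the subunits as red lines and Txndc9 and Pdcl3 as blue lines. The line of Cct8 stands at the lower end of the distribution, Cct6a in its lower tail, and the other subunits in the bulk or, for Cct2, near its upper edge.

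Txndc9, a phosducin-like protein with a thioredoxin fold that binds CCT, fell 2.18-fold, from a log2 average of 5.98 in Saline to 4.85 in Meth, in the authors' deposited table (p = 0.0004, adjusted p = 0.0194). Adjusted over the genes at a log2 average of 1 or more alone, this value was 0.208 and the call was lost. Back-transformed, its averages are 62.1 and 27.8. Of the 21 genes called lower in the authors' deposited table it had rank 8 by fold. Pdcl3, the other member of this family among the 10 genes, which assists the folding of actin and tubulin with CCT in yeast as its counterpart Plp2, stood at 6.47 against 6.23, per the authors' deposited table (p = 0.0642, adjusted p = 0.5271). Txndc9 and Pdcl3 were thus read at like levels in Saline and apart in Meth; the difference between their responses was not tested.

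The rest of the phosducin family gave 1 more expressed gene. Pdcl, which works with CCT in the assembly of G protein beta and gamma subunits, stood at 3.81 in Meth and 5.61 in Saline, per the authors' deposited table (p = 0.0220, adjusted p = 0.3728). Pdc, the phosducin of the retina, and Pdcl2, which is used in male germ cells, were listed at 0 in both groups in the authors' deposited table. Of the 3 expressed genes of the family, 2 stood lower with an unadjusted p under 0.05 (8.19% of the genes at a log2 average of at least 1 did), and 1 of them passed the adjusted threshold.

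The size of the fold and the deposited p parted ways beyond the members. Of the 164 genes at a log2 average of at least 1 with a difference of -2 or lower, 44 had an unadjusted p under 0.05 and 0 an adjusted p under 0.05 in the authors' deposited table, whose statistical model is not given in the sources used here. Their median p was 0.0784, below the value of Cct8. The 3 genes nearest to Txndc9 by their averages, Zdhhc5, Patl1 and Hist1h1d, stood within 0.072 log2 units of it and had p-values of 0.0859, 0.0449 and 0.3291 in the authors' deposited table. Nearly equal averages thus carried p-values far apart, and the spread between mice behind them is not in the table.

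**Figure D3:**
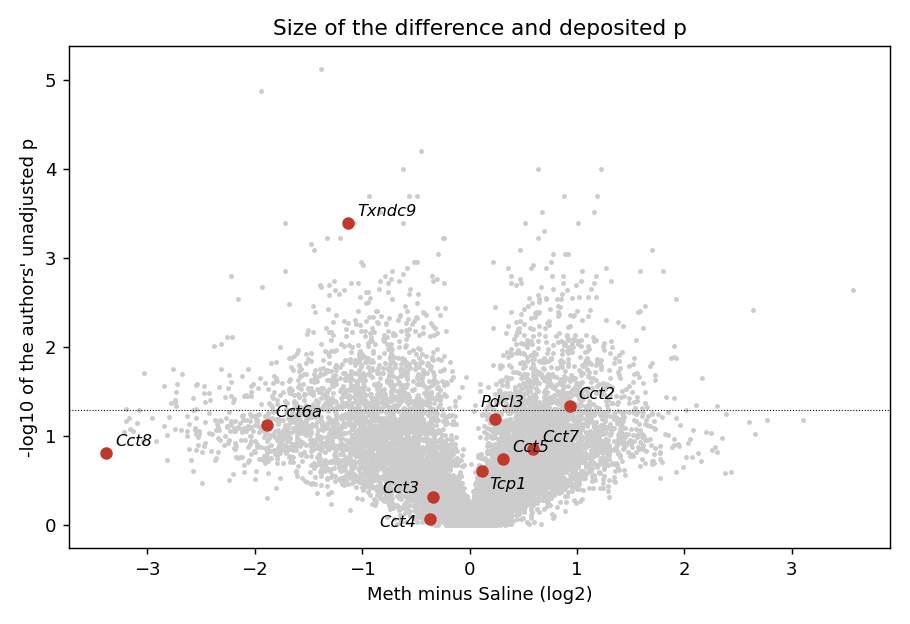
Log2 difference, Meth minus Saline, against -log10 of the authors' unadjusted p for the 10375 genes at a log2 average of 1 or more (grey), with the 10 members in red and a dotted line at p = 0.05. Txndc9 stands high at a difference of -1.13, while Cct8 stands farthest to the left under the dotted line.

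The promoters of Cct8, Cct6a and Txndc9 are shown because these 3 members had the largest lower folds. RefSeq promoter windows of GRCm38.p6, from 250 bases before to 50 after a start, were matched for 8 of the 10 members by symbol. Capitals mark motif matches on either strand. The motifs were GAANNTTC and TTCNNGAA (pairs of the GAA units of heat shock elements), CACGTG (E-box), CCGGAAGT (ETS), GGGCGG (GC box) and CCAAT. The matches do not overlap one another in these windows.
Cct8, chr16:87495820-87496119, minus strand: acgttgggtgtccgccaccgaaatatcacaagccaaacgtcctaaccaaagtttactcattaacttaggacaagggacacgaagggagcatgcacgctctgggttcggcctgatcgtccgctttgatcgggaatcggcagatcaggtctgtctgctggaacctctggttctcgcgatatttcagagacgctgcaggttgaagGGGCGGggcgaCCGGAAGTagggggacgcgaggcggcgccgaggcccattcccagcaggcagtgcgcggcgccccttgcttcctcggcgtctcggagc
Cct6a, chr5:129787106-129787405, plus strand: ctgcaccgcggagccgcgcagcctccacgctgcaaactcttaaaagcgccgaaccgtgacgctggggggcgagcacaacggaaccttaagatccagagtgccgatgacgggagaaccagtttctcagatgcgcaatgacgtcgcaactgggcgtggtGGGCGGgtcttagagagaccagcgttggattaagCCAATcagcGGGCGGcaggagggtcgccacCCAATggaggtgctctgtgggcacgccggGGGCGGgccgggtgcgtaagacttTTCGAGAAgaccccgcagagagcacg
Txndc9, chr1:37997159-37997458, minus strand: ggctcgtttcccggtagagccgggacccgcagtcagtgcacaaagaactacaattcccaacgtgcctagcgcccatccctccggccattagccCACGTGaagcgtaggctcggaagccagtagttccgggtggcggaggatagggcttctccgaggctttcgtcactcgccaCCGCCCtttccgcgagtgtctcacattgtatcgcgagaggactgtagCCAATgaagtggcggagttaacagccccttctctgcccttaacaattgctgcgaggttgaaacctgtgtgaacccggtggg

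A GC box lay in at least 1 window of 8 of 8 members and in 35.9% of all 32544 windows. The CCAAT box was held by 5 of 8 members and 37.4% of all windows. Cct2 and Cct5 have 2 windows each, and window 2 of Cct5 held 0 matches, so shares per member and per window are not alike. Cct8 held an ETS match, as did Tcp1, whose average hardly differed (3.92% of all windows). Cct6a held a tail-to-tail pair of heat shock units, as did Cct5 (8.55% of all windows), and Cct2 the head-to-head form (7.89%). Of the 8 members with a window, Txndc9 alone held an E-box (7.17% of all windows). The heat shock factor gene Hsf1, known to drive chaperone genes under stress, stood at 6.19 in Meth and 5.22 in Saline, per the authors' deposited table (p = 0.0287, adjusted p = 0.4009). Of the members with a pair of heat shock units, Cct2 and Cct5 had higher and Cct6a lower Meth averages, none with an adjusted p under 0.05. The part of Hsf1 in these differences was not tested. A match is a stretch of letters and not a shown binding site.

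The gene that overlaps Cct8 on the opposite strand had the reverse averages. Usp16, a deubiquitinase of histone H2A, stood at 4.85 in Meth and 2.25 in Saline, per the authors' deposited table, a 6.04-fold higher average (p = 0.0682, adjusted p = 0.5308) and rank 6 of all genes by higher fold. In GENCODE M21 the genes lie tail to tail and share 192 exon bases, all of them in the untranslated ends of both. Where the amplicons of either gene lie is not given in the sources used here. Reads of a shared stretch cannot be told apart without strand. Tail-to-tail pairs that overlap over any stretch, in exons or not, numbered 396 with both genes at a log2 average of at least 1. Of these, 44.4% had differences of opposite sign and 11 held a gene at -2 or lower. In 1 pair, Usp16 and Cct8, a gene lay at -2 or lower and the other at 2 or higher. This pair was picked with its values known, so the count is no test of a link between the genes.

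Other members have a neighbour that starts within 1000 bases on the opposite strand. Eif5b, a GTPase of ribosomal subunit joining, starts 117 bases from Txndc9 and stood at 5.98 in Meth and 5.16 in Saline, per the authors' deposited table (p = 0.0504, adjusted p = 0.4935), where Txndc9 was lower. Psph, the phosphoserine phosphatase gene that shares 452 exon bases with Cct6a, stood at 3.07 against 3.09, per the authors' deposited table and so without the difference of Cct6a. The other neighbours, Mrpl18 beside Tcp1 (6.26 against 5.73, p = 0.0327), Fam173b beside Cct5 (3.07 against 2.78) and Pradc1 beside Cct7 (3.24 against 3.05), stood higher in Meth as their partners did in the authors' deposited table. Tsacc, beside Cct3, was listed at 0 in both groups in the authors' deposited table.

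**Figure D4:**
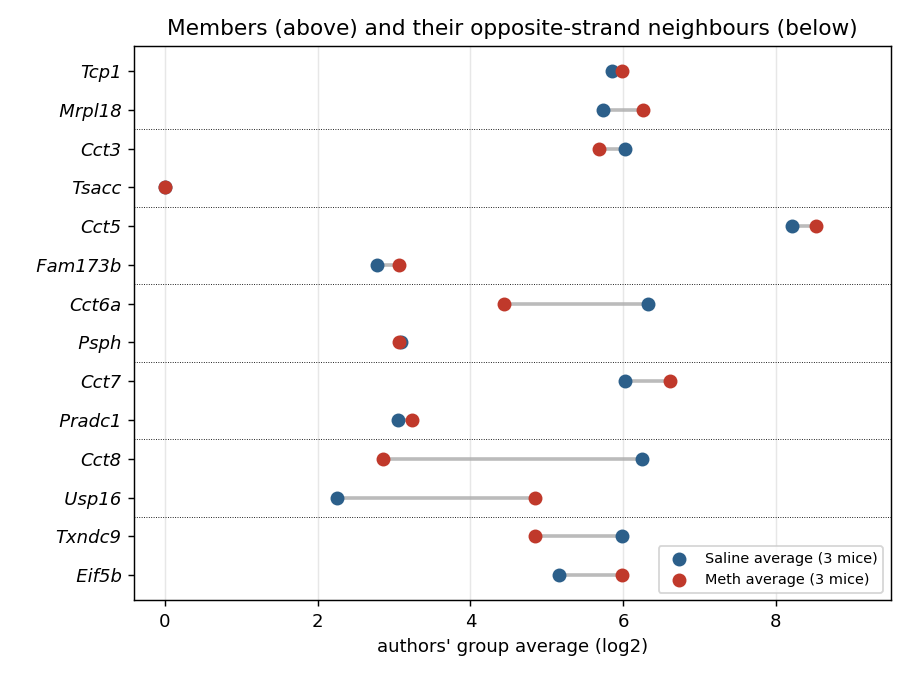
Group averages (log2; Saline in blue, Meth in red, each the authors' average of 3 mice) of 7 members and, below each, the gene that overlaps it or starts within 1000 bases of it on the opposite strand. The points of Cct8 and Usp16, and those of Txndc9 and Eif5b, change sides between member and neighbour, while Psph keeps its points together beside Cct6a.

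Over the 9697 genes at a log2 average of at least 1 with a GENCODE M21 transcript, the median difference was -0.19 at a GC content of 45.4% or less, the lower quartile, and 0.25 at 54.9% or more, the upper quartile. Txndc9 had a GC content of 40.0%, at percentile 4.7 of these genes, and Cct8 of 43.3%, at percentile 15.2. Cct7, with a higher Meth average, had the highest of the members at 54.0%, while Cct6a and Cct2 lay close together at 47.4% and 47.2% with opposite differences. Spearman's rho of GC content and log2 difference was 0.23 over the 9697 genes and 0.53 over the 10 members. With 10 genes, chosen with their differences known, the larger rho does not show a stronger dependence among the members. GC content was that of the longest transcript of a gene, protein-coding where present, and not that of the amplicon. The part of GC content in these differences was not tested. Processed pseudogenes with at least 90% identity over at least 100 bases, outside repeats, were found for Cct3 (1), Cct7 (2), Txndc9 (2) and Pdcl3 (1), and none of these 6 is a row of the authors' deposited table. Cct2, Cct4 and Cct5 had 0 other genes that alike. Tcp1 was alike to Acat3 (574 bases) and Acat2 (445 bases), Cct6a to Psph (452 bases), Cct7 to Pradc1 (215 bases) and Cct8 to Usp16 (192 bases). Reads of these 7 genes are uncertain to the extent that an amplicon lies in such a stretch.

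Around the chaperonin, 11 further lists held 89 genes that are not members, and 79 of these were in the authors' deposited table. None had an adjusted p under 0.05 there, with a lowest value of 0.1949, while 15 had an unadjusted p under 0.05, 8 higher and 7 lower. Of the 64 at a log2 average of at least 1, 23.4% had such a p, against 14.7% of all genes at that level, and their median difference was 0.10.

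Prefoldin, the cochaperone that hands actin and tubulin to CCT, was split as the subunits were. Of its 6 genes, 3 stood higher and 3 lower, with a median of 0.17, and 0 had an adjusted p under 0.05. Pfdn5 stood at 6.66 in Meth and 4.31 in Saline (p = 0.1033), Pfdn4 at 5.08 and 4.24 (p = 0.2186) and Pfdn6 at 4.56 and 3.79 (p = 0.0517) in the authors' deposited table. On the other side of the authors' deposited table were Pfdn2 at 4.86 and 5.62 (p = 0.0065, adjusted p = 0.1949), Vbp1 at 3.99 and 5.37 (p = 0.1442) and Pfdn1 at 3.37 and 3.80 (p = 0.2695). Prefoldin-like and R2TP genes, whose products assemble polymerases and kinases with HSP90, had 3 of 5 higher with a median of 0.57, such as Pih1d1 at 4.91 and 4.06 (p = 0.0549) and the ATPase Ruvbl2 at 6.46 and 5.76 (p = 0.1026) in the authors' deposited table, and Rpap3 at 2.50 and 2.89 among the others.

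Among the cytoskeletal clients of CCT that were found by symbol, those at the highest levels differed little. The beta-actin gene Actb stood at 14.01 in Meth and 13.76 in Saline (p = 0.6503), and Tubb5, the most abundant tubulin read, at 9.58 and 9.69 (p = 0.4221), in the authors' deposited table. Actg1, Tuba1a, Tuba1b, Tuba1c, Tubb2a and Tubb2b were looked up and not found by symbol in the authors' deposited table, so the order of levels leaves them out. Tubb4b, another beta-tubulin, stood at 5.90 and 4.81 (p = 0.0177, adjusted p = 0.3401), and Tubg1, the gamma-tubulin that nucleates microtubules, at 4.99 and 5.28 (p = 0.0335) in the authors' deposited table; Tubd1 stood at 1.34 and 1.69. Of the actin-related proteins in the authors' deposited table, the branching factors Actr2 at 8.24 and 8.74 (p = 0.0388) and Actr3 at 8.11 and 8.42 (p = 0.0586) stood lower and the dynactin subunit Actr1a at 7.44 and 7.29 (p = 0.0492) higher. Tubulins had a median difference of -0.01 over 11 genes, and of -0.11 over the 7 at a log2 average of at least 1. Actins and actin-related proteins had a median of -0.08 over 6 genes and tubulin folding cofactors of -0.12 over 6. Of the cofactors in the authors' deposited table, Arl2 stood at 5.64 and 6.01 (p = 0.0468), Tbcc at 3.32 and 4.30 (p = 0.1288) and Tbcb at 7.48 and 7.24 (p = 0.2413).

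WD40 clients stood higher in 9 of 14 genes and lower in 4, with a median of 0.10. Wrap53, a telomerase trafficking factor, stood at 4.76 in Meth and 3.55 in Saline (p = 0.0155, adjusted p = 0.3199), and the mTOR complex subunit Mlst8 at 4.61 and 3.61 (p = 0.0253) in the authors' deposited table. The G protein beta subunits Gnb2 (9.66 and 8.75, p = 0.0371) and Gnb1 (9.14 and 8.43, p = 0.3795), clients of the pathway in which Pdcl acts, also stood higher in the authors' deposited table, where Pdcl itself stood lower. Of 6 other clients, the histone deacetylase Hdac3 stood at 5.72 and 4.99 (p = 0.0429), the mitotic kinase Plk1 at 1.07 and 1.48 (p = 0.0312) and the tumour suppressor Vhl at 7.05 and 7.41 (p = 0.0517) in the authors' deposited table. Hspe1, the lid of the mitochondrial chaperonin, stood at 6.88 and 6.11 (p = 0.3237), and Hsf2 at 4.28 and 4.24, in the authors' deposited table. Mkks, a CCT-like protein of ciliary complexes, stood at 2.53 and 3.45 in the authors' deposited table (p = 0.2991).

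**Figure D5:**
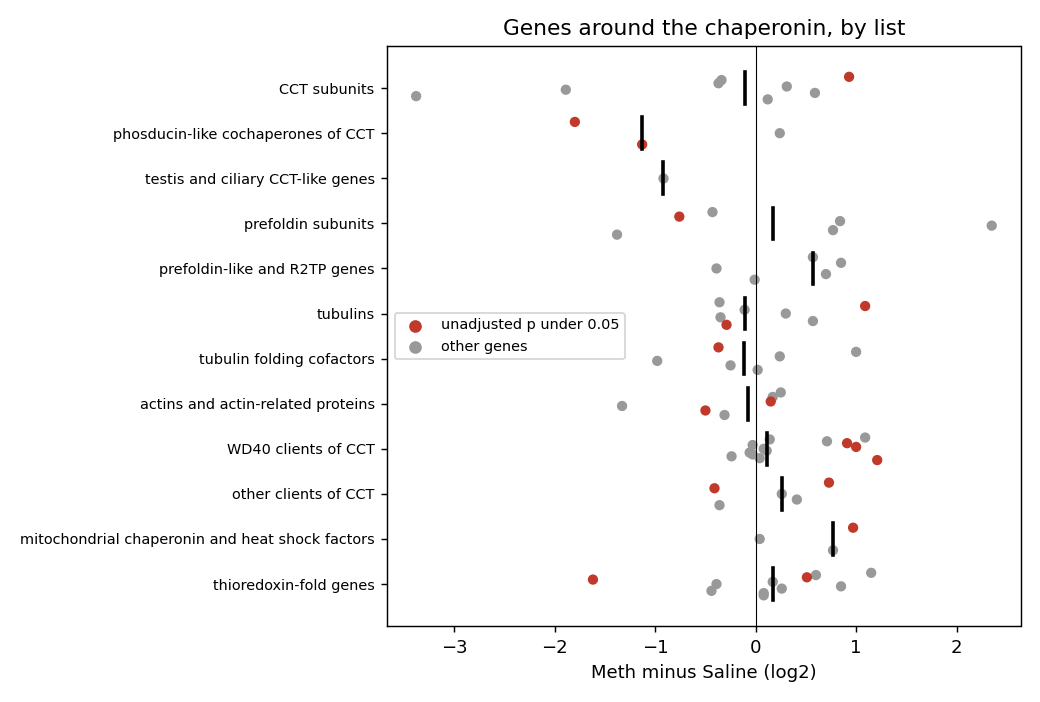
Log2 difference, Meth minus Saline, of the genes of 12 lists around the chaperonin at a log2 average of 1 or more, 1 point per gene, red where the authors' unadjusted p is under 0.05, with a black bar at the median of the genes plotted. The CCT subunits and prefoldin spread to both sides of 0, with Cct8 farthest to the left and Pfdn5 farthest to the right.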

How the data were processed

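Microglial RNA of 6 mice was read with an AmpliSeq mouse transcriptome panel on an Ion S5XL sequencer, per the labels' protocols. How reads were aligned, counted, normalized and tested, and on which genome build, is not given in the sources used here. The authors' deposited table holds their log2 group averages, per the file headers. The signed fold change deposited by the authors is negative for genes lower in Meth and matches the averages within 0.017 on the log2 scale. The p-value and the FDR adjusted p-value are the authors' deposited values, per the file headers. The table has 0 columns of values per mouse, so depth and spread are unknown and no fit was possible.

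Computed here were differences of averages, back-transformed values, list medians, counts, a Benjamini-Hochberg adjustment and motif matches; the adjustment and the motif search were tested on simulated data. Genes were called at a deposited FDR under 0.05. Named genes were the 10 members and up to 3 of each list with the smallest deposited p at a log2 average of at least 1. Prefoldin, Actb, Tubb5, Gnb1, Gnb2, Pdcl and the 3 genes nearest to Txndc9 were named in any case. Neighbours, paralogs, Gnb4, Gnb5, Tbca and Actr1b were added after their values were seen. Members and lists were chosen with earlier results of these data known. Neighbours, transcripts and copies came from GENCODE M21 and promoter sequences from RefSeq (GRCm38.p6). Transcript stretches alike in more than 20 genes were left out as repeats. Python 3.11.15, numpy 2.4.6, pandas 2.3.3 and scipy 1.17.1 were used. One microglial marker gene of the lists is not reported here.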

Additional observations from a re-analysis of the deposited data

How the results depend on the processing

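The single call among the members depended on the genes over which p was adjusted. Over all 23930 genes 536 were called, and 37 of these were among the 10375 genes at a log2 average of 1 or more. Most of the deposited calls thus lay on genes under a log2 average of 1 in both groups. With a Benjamini-Hochberg adjustment restricted to the 10375 genes at a log2 average of 1 or more in either group, 0 of the 10 members were called, and Txndc9 had an adjusted p of 0.208; 2 members (Cct2 and Txndc9) had an unadjusted p under 0.05. An FDR under 0.1 and a recomputed adjustment over all genes each gave 1. The median log2 difference of the members was -0.11 and lay between -0.13 and -0.07 under the scalings, the removal of the added 1, the deposited fold, the filter at a log2 average of 3 and the restriction to the 8 subunits; the mean was -0.49. Of 40 values of single members under 4 alternatives, 0 changed sign and 1 moved by over 0.1, Cct8 from -3.38 to -3.57 without the added 1. No paired analysis was possible because the table holds group averages only, and for the same reason no mouse could be left out. Depth is unknown, so no limit of detection can be given for genes near 0.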

Other observations

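Txndc9 also belongs to the genes with a thioredoxin fold, and 11 others of that list were read at a log2 average of at least 1. Of these, 8 stood higher and 3 lower in Meth, with a median log2 difference of 0.17, and 0 had an adjusted p under 0.05. Txndc12, a thioredoxin-like protein of the endoplasmic reticulum, stood at 3.95 in Meth and 5.57 in Saline, per the authors' deposited table (p = 0.0420, adjusted p = 0.4630). Txndc11 stood at 7.04 and 6.53 (p = 0.0214), and Txn1, the cytosolic thioredoxin, at 6.68 and 5.53 (p = 0.0546), in the authors' deposited table.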
